A study of Mus musculus with 8 samples.

Results

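Csf2-producing cells were cells of the sorted CD4 T cell libraries with at least 2 unique molecular identifiers (UMIs) of Csf2, the gene of the cytokine GM-CSF, and fewer than 3 UMIs of Il17a, the gene of IL-17A. The rule was applied to barcodes in which 500 or more genes were detected and mitochondrial transcripts did not exceed 10% of UMIs, and it took 544 of 21551 kept barcodes. They were compared with the 20092 kept barcodes that held 0 Csf2 UMIs, called Csf2-zero cells here, within the same library. The limit on Il17a applied to the Csf2-producing cells only, and Csf2-zero cells could hold any number of Il17a UMIs. The Csf2 and Il17a counts chose the cells, so the levels of these 2 genes are given as a description only and neither gene was tested. The remaining 822 barcodes with 1 Csf2 UMI and 93 with at least 2 Csf2 and at least 3 Il17a UMIs entered neither side.

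The cells came from mice of the Foxp3-Cre-YFP reporter genotype with experimental autoimmune encephalomyelitis (EAE), an immunization model of multiple sclerosis. Tissue was the brain, stripped of its meninges, or the spinal cord, taken at day 14 or day 50 after immunization, so that every group carried the same reporter and the same disease and there was no unimmunized control. CD4 T cells had been sorted as CD44 positive, TCRβ positive, CD11b negative and Foxp3-YFP negative, which leaves out cells with the regulatory T cell reporter. RNA and 3 surface proteins were read in the same droplets by CITE-seq, in which antibodies carry DNA tags, with 1 RNA library per tissue and day and no statement of how many mice a library holds. P-values therefore do not measure spread between animals of a group. Those of edgeR come from sums over 4 libraries, with a variance estimated partly from all genes together. A very small value is thus not a measure of how 1 gene varied between the 4 libraries.

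GM-CSF is a growth factor for myeloid cells, and in EAE T cell GM-CSF acts on infiltrating monocytes and their descendants in the central nervous system. Helper T cells make it after T cell receptor (TCR) engagement, when the calcium-regulated factor NFAT, AP-1 and NF-κB act on the Csf2 promoter, and IL-1, IL-23 and IL-2 signals promote its production. It can be made by cells with features of Th1 cells, marked by IFN-γ, of Th17 cells, marked by IL-17A, or of neither.

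Csf2 lies on mouse chromosome 11 on the minus strand, and Il2, Tnf and Ccl1 are 3 other genes that NFAT or NF-κB are known to act on after TCR engagement. Their promoters are shown as examples of genes that were higher in the Csf2-producing cells at day 14. Each is the RefSeq window of GRCm38.p6 from 250 bases before to 50 bases after the gene's start, written 5′ to 3′ on the gene's strand. Capitals mark the NFAT core motif GGAAA or its reverse complement TTTCC.
Csf2, chr11:54249850-54250149, minus strand: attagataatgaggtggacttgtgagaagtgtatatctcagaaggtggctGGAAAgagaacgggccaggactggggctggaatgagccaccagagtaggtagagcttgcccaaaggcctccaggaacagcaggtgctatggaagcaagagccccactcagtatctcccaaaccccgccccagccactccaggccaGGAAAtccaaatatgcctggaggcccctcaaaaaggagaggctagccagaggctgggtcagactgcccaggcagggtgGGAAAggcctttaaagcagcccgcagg
Il2, chr3:37125905-37126204, minus strand: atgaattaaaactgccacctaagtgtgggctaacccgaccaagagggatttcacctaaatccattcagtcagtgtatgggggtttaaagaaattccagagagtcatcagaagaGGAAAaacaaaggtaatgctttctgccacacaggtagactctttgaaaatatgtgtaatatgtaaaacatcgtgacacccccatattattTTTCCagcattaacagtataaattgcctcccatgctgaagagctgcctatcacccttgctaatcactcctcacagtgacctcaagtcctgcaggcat
Tnf, chr17:35201958-35202257, minus strand: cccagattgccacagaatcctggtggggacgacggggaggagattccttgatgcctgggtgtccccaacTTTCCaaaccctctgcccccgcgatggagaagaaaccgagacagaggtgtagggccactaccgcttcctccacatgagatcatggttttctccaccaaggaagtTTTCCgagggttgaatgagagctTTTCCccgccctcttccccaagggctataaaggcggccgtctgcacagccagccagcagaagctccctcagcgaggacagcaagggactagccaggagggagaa
Ccl1, chr11:82179763-82180062, minus strand: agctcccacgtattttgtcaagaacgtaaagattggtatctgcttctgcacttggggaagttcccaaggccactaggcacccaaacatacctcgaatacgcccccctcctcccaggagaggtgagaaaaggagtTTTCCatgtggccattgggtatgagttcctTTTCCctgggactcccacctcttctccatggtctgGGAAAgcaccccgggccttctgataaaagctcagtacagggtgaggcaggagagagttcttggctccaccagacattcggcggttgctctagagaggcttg
The motif occurred 3 times in the windows of Csf2, Tnf and Ccl1 and 2 times in that of Il2. The windows of Ifng and Ccl3, also higher at day 14 and not shown, held the motif 1 and 2 times. It is short and common: searched on both strands, it was in 61.3% of all 32851 promoter windows, in 60.5% of the 337 matched promoters of genes called higher in Csf2-producing cells and in 59.9% of the 377 of genes called lower. A match is a description of the letters and not a bound site.

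The kept libraries held 47272714 UMIs in 10313 barcodes (brain, day 14), 50710551 in 9270 (spinal cord, day 14), 1177903 in 348 (brain, day 50) and 6078142 in 1620 (spinal cord, day 50). Csf2-producing cells were deeper than Csf2-zero cells in every library, with medians of 6772 against 3920.5, 6370.5 against 4836, 6017 against 2945 and 4867.5 against 3453 UMIs in that order, so the comparison was repeated with Csf2-zero cells matched on total UMIs. The doublet caller Scrublet marked 0 barcodes in the day 14 libraries, which counts as a failure at their size, and doublets were not removed; in the day 14 brain and spinal cord, 20.3% and 14.3% of Csf2-producing cells lay in the top 5% of barcodes by UMIs. Libraries shared between 0 and 33 barcodes pairwise, and 1 Csf2-producing cell of the day 14 brain and 4 of the day 14 spinal cord carried a shared barcode. All 10 CD4 T cell markers were detected in the Csf2-producing cells of each library, with summed levels of 6628 to 8294 CPM, the UMI counts of a gene scaled to equal totals, against 7384 to 7761 CPM in Csf2-zero cells. Cd8a was at 0 in every sum of Csf2-producing cells, but Cd8b1, the other gene of the CD8 T cell list, was detected at day 14. That list summed to 5.93 against 5.18 CPM in the day 14 brain and 8.47 against 6.34 CPM in the day 14 spinal cord. At day 50 it was at 0 against 4.60 and 5.08 CPM. Foxp3, the defining gene of the 6-gene regulatory T cell list, was also at 0 in every sum of Csf2-producing cells. The list, which includes Il2ra, nonetheless summed higher in Csf2-producing cells of all 4 libraries, at 828 to 939 CPM against 425 to 650 CPM. The 7-gene list of NK and innate lymphoid cells, with its defining gene Ncr1 at 0, was higher in both day 14 libraries, at 90.8 against 51.1 CPM in the brain and 125 against 28.9 CPM in the spinal cord, and not at day 50, at 0 against 88.3 and 78.9 against 79.3 CPM. The 9-gene dendritic cell list was at 25.5 against 14.4 and 29.7 against 15.4 CPM at day 14, with Flt3, Clec9a and Siglech at 0 in Csf2-producing cells, and at 0 at day 50. The part of these markers in the results was not tested. The 12-gene macrophage list summed to 0 to 40.0 against 2.76 to 31.5 CPM. The 7-gene list of neural and vascular cells summed to 84.8 against 89.9 CPM in the day 14 brain and 121 against 136 CPM in the day 14 spinal cord. At day 50 it was at 104 against 79.1 CPM in the brain and 78.9 against 68.1 CPM in the spinal cord. No other cell type was present in numbers that would measure free RNA in the droplets, and the part of such RNA in these sums was not tested.

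Csf2-producing cells made up 2.24% of the day 14 brain library (231 cells, exact 95% interval 1.96 to 2.54), 3.24% of the day 14 spinal cord (300 cells, 2.89 to 3.62), 0.862% of the day 50 brain (3 cells, 0.178 to 2.50) and 0.617% of the day 50 spinal cord (10 cells, 0.296 to 1.13). Intervals here and below cover counting error only. The intervals of the spinal cord at day 14 and day 50 did not overlap, whereas those of the brain did, and each group is 1 library. Barcodes with at least 2000 UMIs were then thinned to 2000 UMIs and the rule applied again, which left out the shallower barcodes. The shares became 1.16% of 9150, 1.53% of 9128, 1.20% of 250 and 0.402% of 1493 barcodes. The day 50 brain again had 3 cells, now of 250 in place of 348 barcodes, with an interval of 0.248 to 3.47. That interval contained the one of the day 14 brain, 0.949 to 1.40, so these few cells cannot order the days in the brain.

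**Figure D1:**
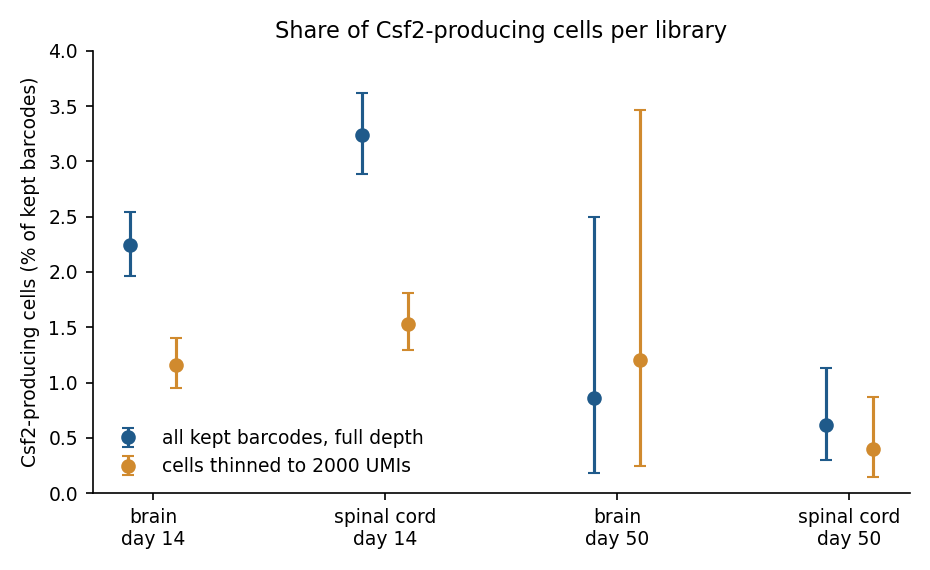
Share of Csf2-producing cells per library, in percent, with exact 95% intervals. Blue is all kept barcodes at full depth, and orange is kept barcodes with at least 2000 UMIs, each thinned to 2000 UMIs. The day 14 spinal cord is highest at 3.24% and the day 50 spinal cord lowest at 0.617%, while the brain interval at day 50 spans 0.178 to 2.50%.

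Within these cells Csf2 stood at a median of 4 UMIs per cell at day 14 in the brain and in the spinal cord, with maxima of 80 and 108, and at medians of 3 and 2.5 at day 50, with maxima of 4 and 11. Their summed Csf2 level was 948, 931, 470 and 808 CPM in the day 14 brain, day 14 spinal cord, day 50 brain and day 50 spinal cord. They held 71.7% and 70.9% of all Csf2 UMIs of the day 14 brain and spinal cord, 25.7% of those of the day 50 brain and 56.2% of those of the day 50 spinal cord. The limit on Il17a removed 45 of 276 cells with at least 2 Csf2 UMIs in the day 14 brain (16.3%), 41 of 341 in the day 14 spinal cord (12%), 6 of 9 in the day 50 brain (66.7%) and 1 of 11 in the day 50 spinal cord (9.09%). Under that limit, 209 of 231 and 272 of 300 Csf2-producing cells of the day 14 brain and spinal cord had no Il17a UMI.

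Across genes, Csf2-producing cells at day 14 combined a broad set of effector cytokines, CCL chemokines and TCR-induced genes with low levels of genes for leaving tissue, of the type I interferon response and of the chemokine Ccl5. Over all 4 libraries, 446 of 8056 genes tested were higher (5.54%) and 488 lower (6.06%), from sums of UMIs per library compared with edgeR's quasi-likelihood test, the library as a block, at a Benjamini-Hochberg adjusted p under 0.05. The median log2 ratio of all tested genes was -0.05. The 13 cells of day 50 held 69883 UMIs, against 1685366 in the Csf2-producing cells of the day 14 brain and 2124066 in those of the day 14 spinal cord, so the calls rest on the day 14 libraries: leaving out the day 14 brain left 58 higher and 32 lower genes, and leaving out the day 14 spinal cord 53 and 38. The day 14 libraries alone gave 833 higher (10%) and 739 lower (8.9%), which include 436 and 462 of the calls above. Against depth-matched Csf2-zero cells the counts were 260 (3.29%) and 169 (2.14%), after thinning 271 (3.46%) and 276 (3.52%), and in limma's voom with sample weights 635 (7.88%) and 574 (7.13%). DESeq2 on the same sums called 31 and 58. Of the genes named by rule, 6 higher genes (Ifng, Tnfsf9, Tnfsf14, Rgcc, Egr2 and Egr3) and 7 lower genes (Klf2, Klf3, S1pr1, Slamf6, Gzmk, Ccl5 and Ifit3) kept their call and direction in all 17 alternatives. Of 82 genes named by rule that could be tested in each, 26 kept their call without the day 14 brain and 33 without the day 14 spinal cord.

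Of 16 tested cytokine and TNF family genes, 13 rose in Csf2-producing cells and 1, Il17f, fell, with a median log2 ratio of 2.03 against -0.05 over all genes. The fall of Il17f cannot be read apart from the limit on Il17a. Ifng, the gene of the macrophage-activating cytokine IFN-γ, stood at 2439 CPM in the day 14 brain, 2161 in the day 14 spinal cord, 835 in the day 50 brain and 453 in the day 50 spinal cord, against 315, 283, 293 and 325 CPM in Csf2-zero cells. Csf2-producing cells were higher in all 4 libraries, 7.74-fold and 7.63-fold at day 14 but 1.40-fold in the day 50 spinal cord, where the counting interval of the ratio included no difference. The fitted log2 ratio was 1.99 ± 0.26 (SE, edgeR adjusted p = 1.79e-12).

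Tnf, which encodes the inflammatory cytokine TNF, was at 323, 549, 104 and 197 CPM in the same order of libraries against 68.7, 96.7, 106 and 69.7 CPM. It was higher in 3 of 4 libraries, the day 50 brain lying at 0.987-fold on 2 UMIs (log2 ratio 2.07 ± 0.20, edgeR adjusted p = 1.68e-22; the call was lost without either day 14 library). Tnfsf11, the gene of RANKL, a TNF family ligand that acts on myeloid cells, was at 255, 383, 157 and 98.6 CPM against 51.2, 73.2, 97.4 and 69.3 CPM, higher in all 4 (2.06 ± 0.18, adjusted p = 5.34e-27 in edgeR, again lost without either day 14 library). The day 50 values of Tnfsf11 rest on 8 UMIs of 3 cells and cannot show a higher level there. Tnfsf14, the gene of LIGHT, read 60.5, 137, 0 and 59.1 CPM against 13.1, 23.5, 15.6 and 9.83 CPM. Tnfsf9, which encodes 4-1BB ligand, read 43.9, 99.8, 365 and 19.7 CPM against 8.92, 13.7, 2.76 and 3.73 CPM and was higher in all 4 libraries (2.71 ± 0.17, edgeR adjusted p = 9.48e-53), although its 7 UMIs in the day 50 brain came from 1 cell.

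Il2, the gene of the T cell growth factor IL-2, was at 446 and 214 CPM in the day 14 brain and spinal cord against 17.4 and 6.21 CPM. Few cells carried it: 22 and 19 of the Csf2-producing cells held a UMI, and the 2 richest cells held 57.3% and 49.5% of them. At day 50 it was at 0 in the brain and at 59.1 CPM in the spinal cord, against 76.3 and 33.2 CPM. The edgeR log2 ratio over 4 libraries was 4.18 ± 0.19 (adjusted p = 1.44e-102), and DESeq2 did not call the gene (2.40, adjusted p = 0.722).

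Il22, whose product acts on epithelial and other non-hematopoietic cells, read 475, 118, 0 and 0 CPM against 67.7, 25.2, 3.68 and 22.4 CPM. In the day 14 brain 83.8% of its UMIs came from 2 cells, so that its level there is that of those cells. Il21, the gene of a cytokine that acts on B cells, was detected at 12.5 and 21.7 CPM at day 14 against 3.90 and 3.63 CPM, and at 0 at day 50. Il17f, a close relative of the Il17a that the rule limits, was at 0 in every sum of Csf2-producing cells against 19.0, 3.35, 2.76 and 18.3 CPM. The limit was set on 1 side only: in the day 14 brain Il17a was at 15.4 CPM in Csf2-producing and 159 CPM in Csf2-zero cells. The cells that the limit set aside held 75.4 and 90.3 CPM of Il17f in the day 14 brain and spinal cord. Il10, an anti-inflammatory cytokine gene, was also at 0 in all 4 sums, against 1.04 to 3.74 CPM, and lay below the filter on low levels.

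**Figure D2:**
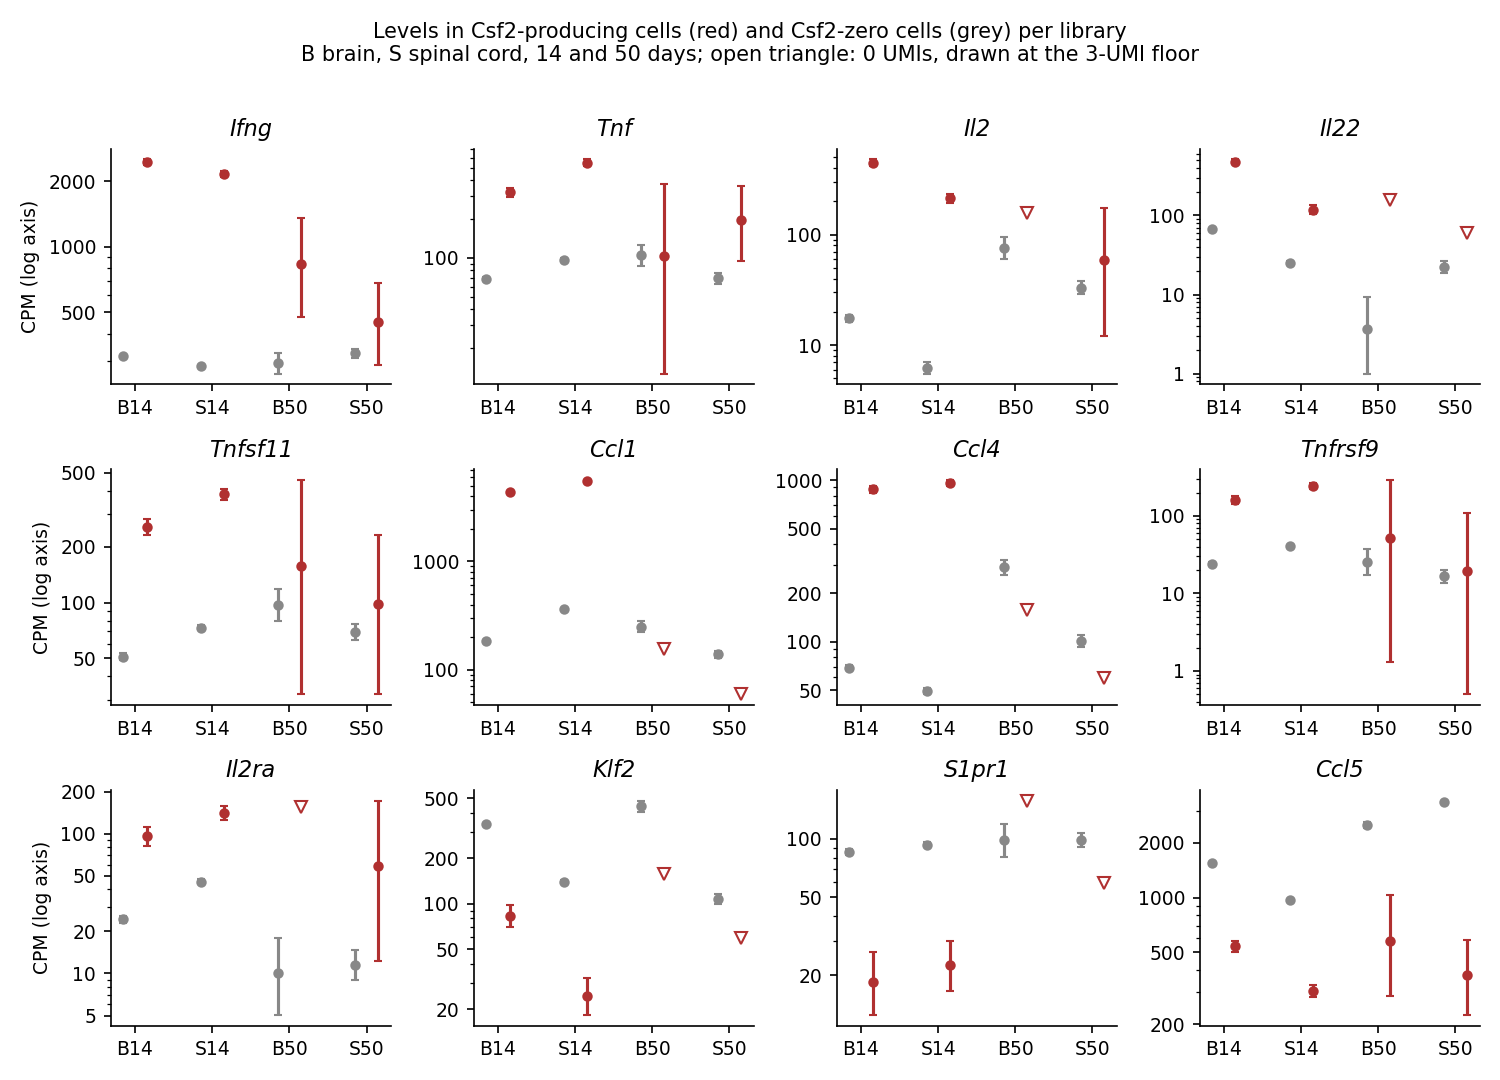
Level of 12 genes in CPM on log axes, in Csf2-producing cells (red) and Csf2-zero cells (grey) of the brain (B) and spinal cord (S) at days 14 and 50, with exact 95% Poisson intervals; an open triangle stands for 0 UMIs at the 3-UMI floor. Ifng, Tnf, Il2, Ccl1 and Ccl4 are far higher and Klf2, S1pr1 and Ccl5 lower at day 14, whereas the day 50 values rest on 3 and 10 cells.

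Chemokine genes also differed widely at day 14. Ccl1, whose product attracts cells through the receptor CCR8, reached 4389 CPM in the day 14 brain and 5551 CPM in the day 14 spinal cord against 184 and 361 CPM in Csf2-zero cells, 23.8-fold and 15.4-fold higher, with UMIs in 105 and 152 cells. At day 50 Ccl1 was at 0 in all 13 cells, while Csf2-zero cells held 250 and 138 CPM, with UMIs in 6 of 333 and 23 of 1580 cells. Ccl3 and Ccl4, which encode the inflammatory chemokines MIP-1α and MIP-1β, were at 342 and 237 CPM and at 875 and 959 CPM at day 14, against 21.0 and 21.0 CPM and 69.0 and 49.2 CPM.

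These 2 genes came from few cells, 31 and 28 for Ccl3 and 28 and 45 for Ccl4 at day 14, and were at 0 in the day 50 cells. Xcl1, the ligand of the dendritic cell receptor XCR1, read 414, 326, 261 and 19.7 CPM against 39.2, 58.4, 90.1 and 251 CPM, thus higher in 3 libraries and lower in the day 50 spinal cord. Its UMIs came from 20 and 22 cells at day 14 and from 1 cell in each tissue at day 50. Over 4 libraries edgeR called Ccl1 (log2 ratio 2.57 ± 0.31), Ccl3 (3.54 ± 0.18), Ccl4 (2.62 ± 0.27) and Xcl1 (2.18 ± 0.20) higher, with adjusted p-values of 6.15e-15, 3.47e-80, 2.1e-19 and 3.05e-24. DESeq2 called none of these 4, and its log2 ratios for Ccl1 and Ccl4 were -0.37 and -0.42. Without either day 14 library the calls of Ccl1, Ccl4 and Xcl1 were lost. Depth-matched Csf2-zero cells held 77.8 and 161 CPM of Ccl3 and 87.9 and 290.5 CPM of Xcl1 at day 14, and the fitted log2 ratios against them were 1.28 and 1.0.

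Ccl5 (RANTES), a chemokine typical of memory and cytotoxic T cells, went the other way. It was at 539, 305, 574 and 375 CPM in Csf2-producing cells against 1549, 966, 2496 and 3373 CPM. Csf2-producing cells were lower in all 4 libraries (log2 ratio -2.18 ± 0.24, edgeR adjusted p = 1.28e-17), although their day 50 UMIs came from 1 cell in each tissue. The share of cells with a Ccl5 UMI differed less than the level: after thinning it was 29.0% against 30.9% in the day 14 brain and 18.4% against 26.4% in the day 14 spinal cord, and at full depth 43.7% against 36.8% and 31.3% against 34.3%. In all, 5 of 7 tested chemokine genes rose and 2, Ccl5 and Cxcl10, fell. Ccl20, counted among the 5, passed the filter on low levels only through Csf2-producing cells of the day 14 spinal cord, at 58.8 CPM. It was at 0.678 CPM or less in Csf2-zero cells, so its call as higher cannot be read apart from that filter.

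Among 18 tested genes of the TCR and NFAT response, 11 rose and 1, Cd28, fell, with a median log2 ratio of 0.86. Tnfrsf9, the gene of the activation-induced receptor 4-1BB whose ligand was higher as well, was at 159, 245, 52.2 and 19.7 CPM against 24.3, 40.5, 25.7 and 16.6 CPM. Day 14 cells were 6.54-fold and 6.06-fold higher, and the day 50 sums held 1 UMI each (2.54 ± 0.17, edgeR adjusted p = 2.6e-45, lost without the day 14 brain). Egr3 and Egr2, TCR-induced transcription factors that restrain activation, were at 92.0 and 264 CPM and at 34.4 and 145 CPM at day 14, against 13.5 and 22.8 CPM and 8.16 and 22.9 CPM. Their log2 ratios over 4 libraries were 3.12 ± 0.18 and 2.42 ± 0.17 in edgeR (adjusted p = 2.81e-64 and 7.25e-41). Nr4a1, another early TCR-induced gene, was higher in all 4 libraries, at 198, 241, 209 and 118 CPM against 99.2, 36.2, 172 and 65.4 CPM (1.62 ± 0.18, edgeR adjusted p = 1.44e-17; the call was lost in DESeq2, at an adjusted p of 0.243, and without either day 14 library). The day 50 values of Nr4a1 rest on 10 UMIs of 6 cells and cannot show a higher level there. Rgcc, a cell cycle regulator, was higher in all 4 libraries as well, at 368, 555, 1044 and 197 CPM against 91.2, 76.2, 222 and 107 CPM (2.06 ± 0.21, edgeR adjusted p = 3.74e-21).

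NF-κB genes rose in 8 of 20 and fell in none of those tested (median 0.31), with Nfkbid, Rel, Nfkbib and Relb having the widest ratios, 1.43, 1.13, 0.83 and 0.78. AP-1 and immediate early genes showed no common direction, with 3 higher and 2 lower of 20 and a median of -0.11. Atf3 and Ier3 were among the 3 higher, and their direction turned without the library block, to -0.18 and -0.04.

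Of 21 tested receptors of cytokines that act on GM-CSF production, 7 rose and 3 fell, with a median log2 ratio of 0.04, so the list had no common direction. Il2ra, the high-affinity chain of the IL-2 receptor, was at 96.7, 140, 0 and 59.1 CPM against 24.5, 45.3, 10.1 and 11.5 CPM (1.78 ± 0.17, edgeR adjusted p = 3.64e-23, lost without the day 14 brain). Il1r1, the signalling receptor of IL-1, was at 45.7, 95.1, 0 and 39.4 CPM against 26.9, 57.2, 18.4 and 7.46 CPM (0.75 ± 0.18, edgeR adjusted p = 0.000525; lost in DESeq2, at an adjusted p of 0.586, and without either day 14 library), and the decoy receptor Il1r2 at 121, 254, 0 and 0 CPM against 44.8, 61.6, 11.0 and 7.46 CPM. Il23r, the IL-23 receptor, stood at only 3.56 and 5.65 CPM at day 14 against 4.11 and 7.38 CPM and was below the filter. Il6ra and Il7r were among the 3 lower genes. No gene of the GM-CSF receptor passed the filter.

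Transcription factors of helper T cell type split, 8 higher and 7 lower of 27 with a median of -0.01. Tbx21, the Th1 factor T-bet, was at 22.5, 32.5, 0 and 39.4 CPM against 14.6, 21.6, 13.8 and 14.1 CPM. edgeR called it higher (0.60 ± 0.20, adjusted p = 0.0293), but the call was lost against depth-matched cells (adjusted p = 0.341), in DESeq2 and without either day 14 library. Irf4, Irf8 and Bcl6 rose too (1.35, 1.62 and 1.45; DESeq2 called none of them). Bhlhe40, a factor required for GM-CSF production by T cells, was at 624, 564, 1774 and 651 CPM against 529, 431, 554 and 490 CPM. It was higher in all 4 libraries yet did not pass the test over them (0.38 ± 0.23, edgeR adjusted p = 0.337), and the day 14 libraries alone gave 0.30 with an adjusted p of 0.0117. Batf did not pass either, at 77.7, 81.4, 104 and 59.1 CPM against 88.4, 72.2, 62.5 and 55.4 CPM.

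Genes of egress and lymph node homing were lower as a group: 10 of 11 fell and none rose, with a median log2 ratio of -1.45. Klf2, the factor that drives egress receptors in T cells, was at 83.1, 24.5, 0 and 0 CPM against 337, 140, 441 and 107 CPM, lower in all 4 libraries (-2.35 ± 0.23, edgeR adjusted p = 7.71e-22). S1pr1, the receptor through which T cells leave tissue and a target of that factor, was at 18.4, 22.6, 0 and 0 CPM against 85.6, 93.2, 98.4 and 98.0 CPM (-2.18 ± 0.23, edgeR adjusted p = 1.33e-19). Tcf7, the gene of the memory and stem-like factor TCF-1, read 23.7, 40.0, 52.2 and 59.1 CPM against 143, 119, 117 and 121 CPM (-1.98 ± 0.21, edgeR adjusted p = 1.25e-18, lost without the day 14 brain). In these 3 genes no sum of Csf2-producing cells reached the Csf2-zero sum of its library. In the day 50 brain, however, 3 UMIs amount to 157 CPM, above the Csf2-zero levels of S1pr1 and Tcf7. The values there cannot show a lower level of S1pr1 or Tcf7. Chemokine receptors and integrins fell in 8 of 13 and rose in none (median -1.01), among them Ccr4, Itga4 and Itgb3 (-1.28, -1.20 and -1.18); Ccr4 and Itgb3 lost their call against depth-matched cells. Slamf6 and Cd27, markers of less differentiated memory cells, were at 14.2, 8.0, 0 and 0 CPM against 64.0, 41.6, 31.3 and 39.2 CPM, and at 4.75, 5.65, 0 and 19.7 CPM against 43.1, 21.5, 62.5 and 66.3 CPM. In the day 50 spinal cord 3 UMIs amount to 59.1 CPM. The day 50 values thus cannot show a lower level of Slamf6 in either tissue, or of Cd27 in the brain.

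All 15 tested type I interferon response genes fell, with a median log2 ratio of -1.27. Ifit3, an interferon-induced antiviral gene, was at 10.1, 1.88, 0 and 0 CPM against 39.0, 15.6, 47.8 and 24.6 CPM (-2.31 ± 0.30, edgeR adjusted p = 3.12e-12). Rtp4 was at 21.4, 4.71, 0 and 0 CPM against 51.8, 23.2, 47.8 and 38.0 CPM. Ifi213 was at 17.8, 14.1, 0 and 39.4 CPM against 55.2, 42.8, 80.0 and 63.2 CPM, and both genes were lower in each day 14 library. A count of 3 UMIs at day 50 amounts to 157 CPM in the brain and 59.1 CPM in the spinal cord. The day 50 values of Ifit3, Rtp4 and Ifi213 thus rest on too few UMIs to show a lower level. Against depth-matched Csf2-zero cells 9 of the 15 stayed lower and none was higher, with a median of -0.95.

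**Figure D3:**
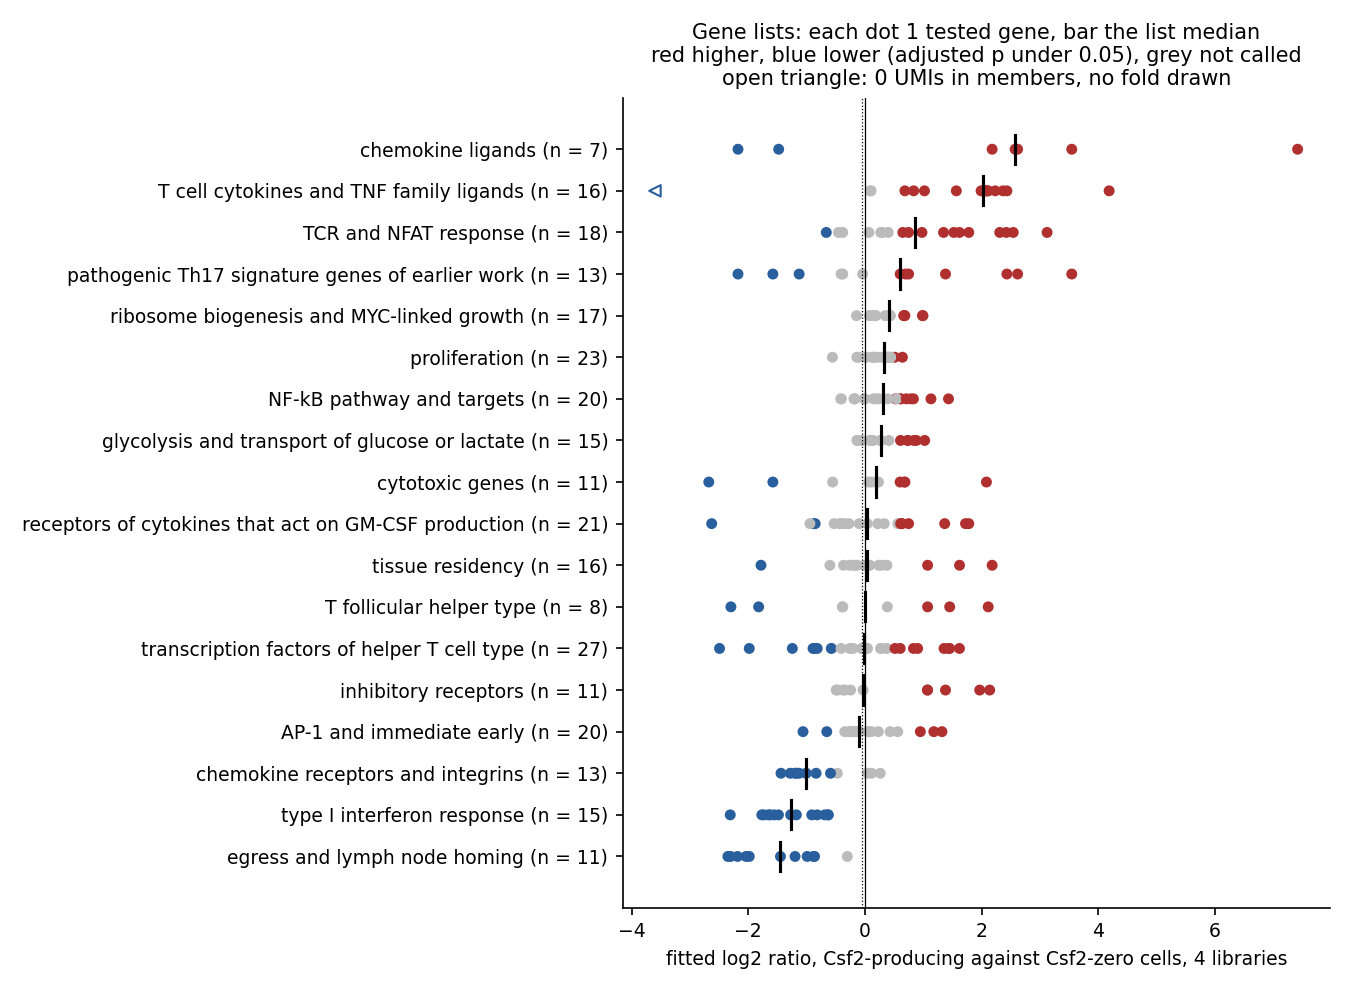
Fitted log2 ratio of Csf2-producing against Csf2-zero cells for each tested gene of 18 lists, with the list median as a bar and the median of all genes, -0.05, as a dotted line; red and blue mark genes called higher and lower. Chemokine and cytokine lists lie highest (medians 2.57 and 2.03) and the interferon and egress lists lowest (-1.27 and -1.45).

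Inhibitory receptors that T cells gain on activation rose in 5 of 11 and fell in none, with a median of -0.03. Cd160 was at 231 and 255 CPM at day 14 against 46.0 and 60.5 CPM, Havcr2 (TIM-3) at 55.8 and 158 against 15.2 and 37.6 CPM, and Lag3 at 133 and 129 against 34.5 and 62.7 CPM. All of these were at 0 in the day 50 cells, where 3 UMIs would amount to 42.9 CPM, and DESeq2 called none of them. Cytotoxic genes split, with 4 higher and 2 lower of 11. Gzmk and Gzmb, the genes of granzymes K and B, fell, at 12.5, 3.77, 0 and 0 CPM against 60.8, 29.3, 128 and 174 CPM and at 23.1, 10.4, 0 and 0 CPM against 60.8, 35.0, 14.7 and 31.9 CPM (-2.68 ± 0.29 and -1.58 ± 0.23, edgeR adjusted p = 4.33e-18 and 6.18e-10). At day 50, 3 UMIs amount to 157 CPM in the brain and 59.1 CPM in the spinal cord. The values there cannot show a lower level of Gzmb in either tissue, or of Gzmk in the brain.

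Tissue residency genes showed no common direction, 3 higher and 1 lower of 16 (median 0.03). Cd69, which encodes an activation and retention receptor, was at 693, 403, 992 and 611 CPM against 666, 419, 744 and 306 CPM and was not called (0.07 ± 0.24, edgeR adjusted p = 0.907), and neither were Cxcr6 (-0.17) and P2rx7 (-0.27). The same 3 products were read at the protein level. Not every antibody feature had a name that matched its identifier. The identifiers, which match the proteins in the labels, were used. Mean CD69 antibody UMIs per cell were 19.0, 29.9, 4.67 and 17.2 in the usual order of libraries against 7.79, 20.01, 3.95 and 9.94 in Csf2-zero cells, those of the ATP receptor P2X7 10.8, 18.9, 9.33 and 24.1 against 7.69, 16.4, 2.54 and 10.0, and those of the chemokine receptor CXCR6 32.4, 33.4, 21.3 and 27.9 against 21.8, 28.1, 6.83 and 16.8. Each protein was higher in 4 of 4 libraries, by a mean log2 ratio of 0.72 ± 0.44, 0.96 ± 0.76 and 0.80 ± 0.60 (SD, n = 4). The exact two-sided permutation p was for each the smallest that 4 libraries allow, which lies above 0.05, before and after adjustment over the 3 proteins. These differences moved with depth: against depth-matched cells the mean log2 ratios were -0.02, 0.23 and 0.36, and as shares of the 3 antibodies -0.13, 0.11 and -0.05.

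Genes of glycolysis rose in 6 of 15 and of ribosome biogenesis in 5 of 17, with none lower in either list (medians 0.28 and 0.41). Hk2, the gene of hexokinase 2, was at 56.4, 51.8, 522 and 118 CPM against 35.4, 29.6, 55.2 and 26.8 CPM, with all 10 UMIs of the day 50 brain in 1 cell. Tpi1, another glycolytic enzyme gene, was at 263, 318, 209 and 237 CPM against 148, 194, 121 and 107 CPM. For proliferation genes the comparisons that allow for depth went different ways. Against all Csf2-zero cells 2 of 23 rose, Mki67 and Mcm5, whereas against depth-matched cells none rose, 2 fell and the median turned from 0.33 to -0.27. With every cell thinned to 2000 UMIs, 3 of 22 rose, none fell and the median was 0.47. Cells classed as cycling (at least 3 UMIs over 6 cycle genes) were 9.96% of Csf2-producing cells in the day 14 brain and 5.67% in the day 14 spinal cord, against 4.38% and 3.61% of Csf2-zero cells and 12.6% and 6.67% of depth-matched ones. Follicular helper genes split as well, with Il21, Bcl6 and Pdcd1 higher and Slamf6 and Izumo1r lower of 8 tested. Of 13 tested members of a pathogenic Th17 signature from earlier work, 7 rose, among them Ccl3, Ccl4, Il22 and Lag3, and 3 fell, Ccl5, Gzmb and Cxcr3; Csf2 itself belongs to that signature and to the rule.

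Within day 14, levels were set out by the number of Csf2 UMIs in the cell, as a description. Cells with 1 Csf2 UMI, just outside the rule, numbered 324 in the brain and 404 in the spinal cord, and cells with 2, just inside, 74 and 101. Ifng in the brain stood at 315 CPM with 0 Csf2 UMIs, 537 with 1, 1375 with 2, 1171 with 3 to 4, 1450 with 5 to 9 and 7340 with 10 or more, and in the spinal cord at 283, 678, 1816, 1118, 2436 and 3646 CPM. Cells just outside the rule thus lay between the Csf2-zero cells and the cells just inside it. Ccl1 went from 184 and 361 CPM at 0 UMIs to 1028 and 1523 CPM at 1 UMI and 4319 and 2999 CPM at 2. Klf2 moved the other way, from 337 and 140 CPM at 0 to 138 and 76.5 CPM at 1 and 87.4 and 35.5 CPM at 2. Il2 was concentrated at the top, at 2006 and 734 CPM in cells with 10 or more Csf2 UMIs and at 87.4 and 36.9 CPM in cells with 2. Most Il2 UMIs of the day 14 brain Csf2-producing cells lay in 2 cells, so its high level there is largely that of few cells. Xcl1 in the brain was high in cells with 2 or with 3 to 4 Csf2 UMIs (772 and 534 CPM) and low above that (23.0 and 34.7 CPM), an order that the spinal cord did not share. Only 20 Csf2-producing cells of the day 14 brain held an Xcl1 UMI. On the Il17a side of the rule, 4 brain and 9 spinal cord cells at day 14 had 2 Il17a UMIs, just inside the limit, and 4 and 10 cells had 3, just outside it. These few cells held Ifng at 0 and 630 CPM inside the limit and at 1451 and 3158 CPM outside it.

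**Figure D4:**
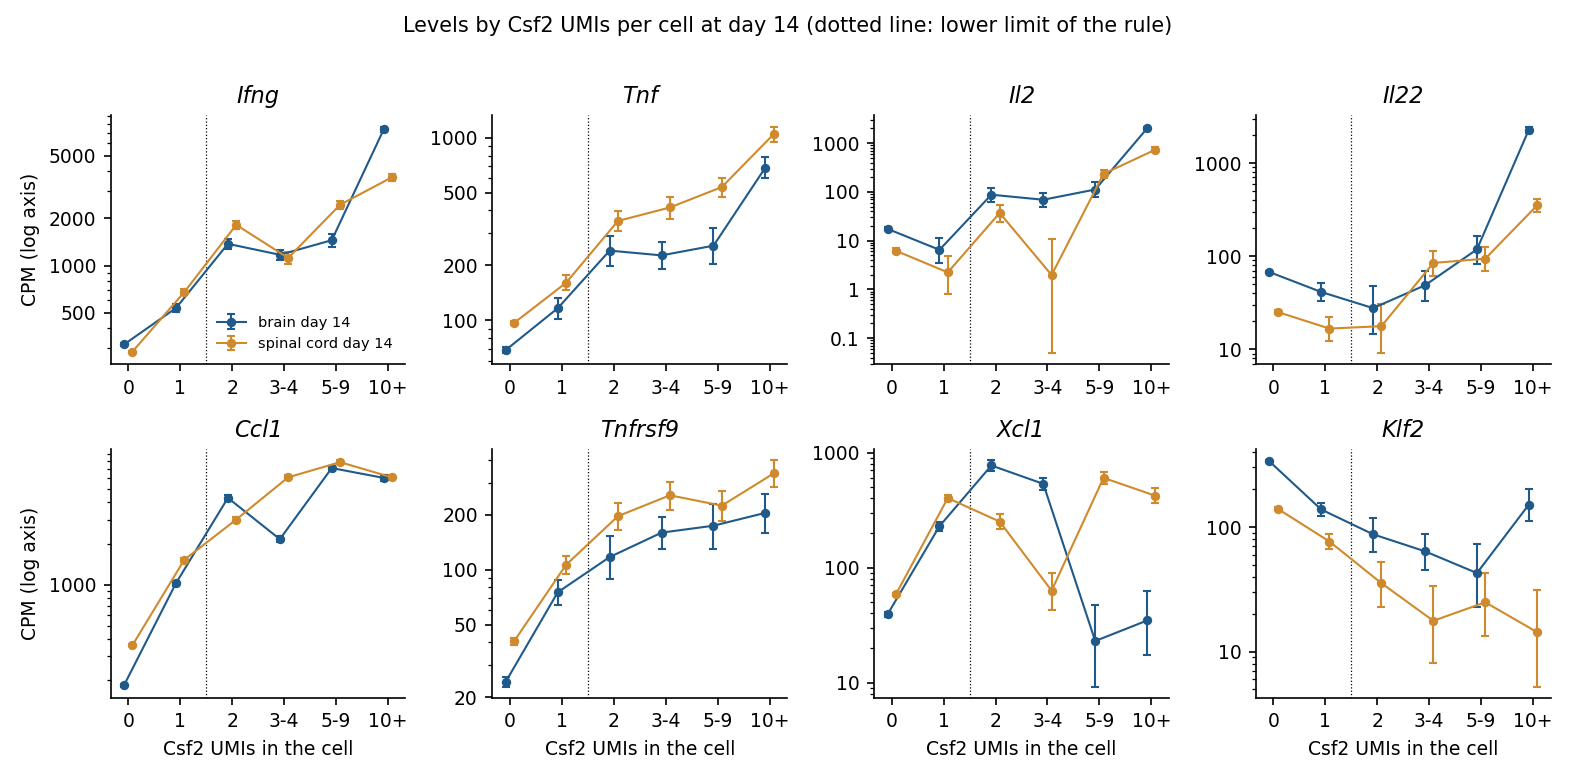
Level of 8 genes in CPM, on log axes, in cells grouped by their Csf2 UMIs in the day 14 brain (blue) and spinal cord (orange), with exact 95% Poisson intervals; the rule takes cells to the right of the dotted line. Ifng and Ccl1 are already higher at 1 Csf2 UMI (537 and 678, 1028 and 1523) than at 0, Klf2 is lower, and Il2 and Il22 peak in cells with 10 or more.

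Counts per cell at equal depth showed how far these genes met in the same cells. With every day 14 cell thinned to 2000 UMIs, which left out 10 and 1 Csf2-producing cells, Ifng was detected in 53.4% of Csf2-producing cells of the brain and 54.2% of the spinal cord, against 27.0% and 26.2% of Csf2-zero cells. Ccl1 was detected in 39.4% and 46.2% against 4.11% and 6.03%, and Tnf in 23.1% and 45.5% against 10.6% and 12.9%. At least 3 of 8 other cytokine genes were found in 19.0% and 25.8% of Csf2-producing cells against 1.39% and 2.26%, and none in 19.9% and 9.70% against 56.0% and 54.3%. The cells were chosen at full depth, and thinning lowers detection (Tnf from 50.2% to 23.1% of Csf2-producing cells in the brain), so a cell with none of the 8 here may hold them at full depth. Klf2 was detected in 11.8% and 5.02% against 33.9% and 21.1%. At full depth Ifng was detected in 73.2% and 69.3% of Csf2-producing cells and Klf2 in 20.3% and 12.3%. Against depth-matched cells these full-depth shares differed in the spinal cord by 17.0 percentage points for Ifng and -11.3 for Klf2.

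Within Csf2-producing cells of day 14, those that also held Ifng carried most of the Ccl3, Ccl4 and Xcl1 transcript. Cells with at least 2 Ifng UMIs (141 in the brain and 181 in the spinal cord) were compared with cells at 0 Ifng UMIs (62 and 92), leaving Csf2, Il17a and Ifng out of the test. Of 8187 genes, 26 were higher (0.318%) and 10 lower (0.122%) in the cells with Ifng, by edgeR on the 4 sums. Ccl4 was at 1318 CPM in the brain and 1455 CPM in the spinal cord with Ifng and at 8.04 and 15.3 CPM without, counts of 1472 and 1966 against 3 and 9 UMIs. Ccl3 was at 514 and 371 CPM with Ifng and at 5.36 and 0 CPM without, 2 and 0 UMIs. In both libraries the Csf2-producing cells without Ifng thus lay near 0 for both genes (log2 ratio 6.77 ± 0.18 for Ccl4, edgeR adjusted p = 2.64e-26; in the spinal cord Ccl3 was at least 72.7-fold higher against a floor of 3 UMIs).

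Xcl1 followed the same order, at 623 and 412 CPM with Ifng against 5.36 and 66.4 CPM without (3.54 ± 0.26, edgeR adjusted p = 5.76e-12). Ccl1 was spread more widely, at 5899 and 5736 CPM with Ifng and still 1452 and 4201 CPM without it. Cd160, Lag3 and Havcr2 were higher with Ifng in both libraries as well (log2 ratios 1.52, 1.11 and 0.97), as were Gzma and Cnih2. Lower with Ifng were Tnfsf8, the gene of CD30 ligand, at 59.1 and 57.7 CPM against 126 and 121 CPM, Penk, the gene of the opioid precursor proenkephalin, at 26.9 and 4.44 against 80.4 and 20.4 CPM, and Cd74, Bmyc, Krt83 and Hist1h2ae. Cells with Ifng were deeper, with medians of 7450 against 5335 and 6714 against 5720 UMIs, and with cells matched on depth edgeR called only Ccl3 and Ccl4; DESeq2 called 7 genes higher and 0 lower, with 59 at an unadjusted p under 0.05. Leaving out a library leaves 2 sums, which cannot be tested.

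**Figure D5:**
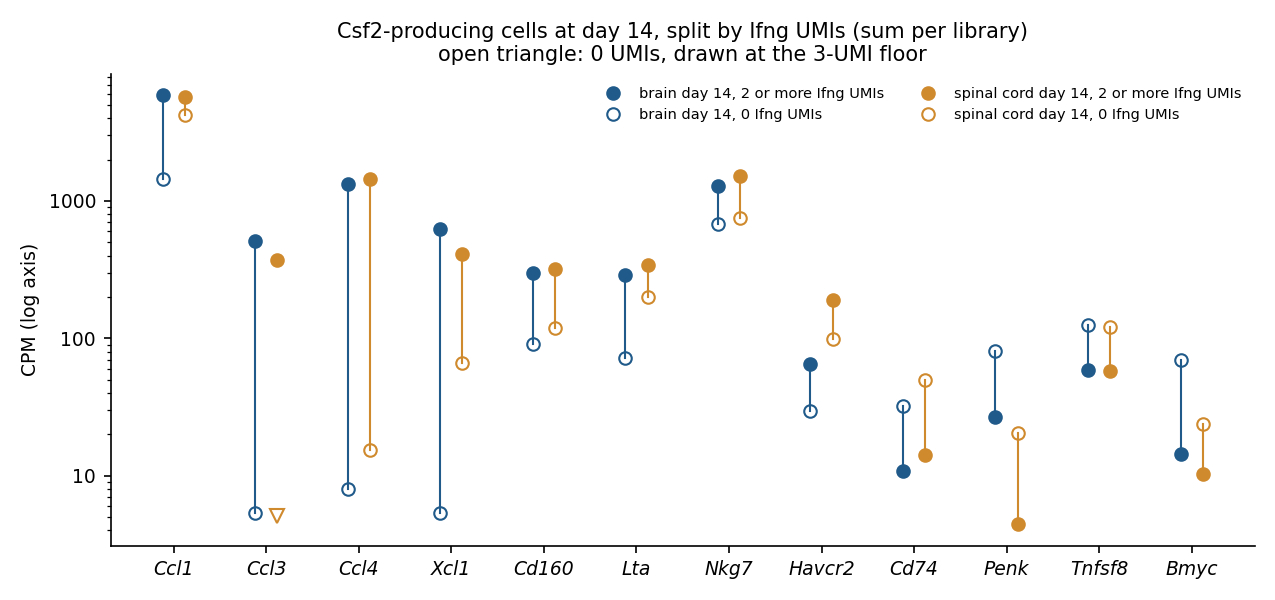
Summed level of 12 genes in CPM, on a log axis, in Csf2-producing cells of the day 14 brain (blue) and spinal cord (orange) with at least 2 Ifng UMIs (filled) or 0 (open). Ccl3, Ccl4 and Xcl1 lie at 371 or more with Ifng and at 66.4 or less without it, while Ccl1 stays at 1452 and 4201.

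The cells that the Il17a limit set aside, with at least 2 Csf2 and at least 3 Il17a UMIs, give a second contrast, with no test because the limit chose them. At day 14 these 45 brain and 41 spinal cord cells held Ccl3 at 18.9 and 38.2 CPM, against 342 and 237 CPM in Csf2-producing cells, although their Ifng was at 2254 and 3721 CPM. Their Il1r1 was at 129 and 146 CPM against 45.7 and 95.1 CPM, and their Il2 at 786 and 1643 against 446 and 214 CPM. Ccl3 thus lay near its Csf2-zero level of 21.0 CPM in these cells. Ccl4 did not, at 732 and 409.9 CPM against 875 and 959 in Csf2-producing cells and 69.0 and 49.2 in Csf2-zero cells.

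The neighbours of Csf2 in the cytokine cluster differed among themselves. Il3, its nearest neighbour at chr11:54265085-54267279, 15.2 kb from Csf2 at chr11:54247270-54249899 (GRCm38.p6), encodes another myeloid growth factor and had 1 UMI in all Csf2-producing cells and 1 in all Csf2-zero cells, against 3625 Csf2 UMIs. Il13, a type 2 cytokine gene 613 kb away, had 66 UMIs in Csf2-producing cells and 78 in the far more numerous Csf2-zero cells, 19.6-fold and 23.4-fold higher in CPM at day 14, from 9 and 5 cells. It lay below the filter of the test and was chosen after its values were seen. Il4 and Il5, the other type 2 cytokine genes of the cluster, had 0 UMIs in Csf2-producing cells against 82 and 7. Irf1, an interferon-induced factor gene 469 kb away, was lower in 3 of 4 libraries, at 43.3, 54.6, 52.2 and 237 CPM against 103, 101, 113 and 110 CPM (-0.92 ± 0.19, edgeR adjusted p = 5.77e-05). Both values of the day 50 brain lay below the 157 CPM that 3 UMIs amount to there. The call of Irf1 was lost against depth-matched cells, in DESeq2 and without either day 14 library.

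Whether these differences change with disease phase was tested as the difference of the log2 ratio between day 50 and day 14. The cytokine and chemokine excess of day 14 was narrower or not detected in the 13 cells of day 50, with 36 of 8056 genes called lower (0.447%) and 4 higher (0.0497%) by edgeR. Ifng exceeded the Csf2-zero level by a log2 ratio of 2.94 in the pooled day 14 sums and of 0.80 at day 50 (39 UMIs in 7 cells; interaction adjusted p = 6.22e-13 in edgeR). For Ccl1 the day 14 ratio was 4.20. At day 50, with 0 UMIs set to the floor of 3, it was -1.86 (edgeR interaction adjusted p = 2.74e-35). For Ccl4 the ratios were 3.97 and, at the same floor, -1.60 (edgeR interaction adjusted p = 1.77e-41). At full depth few day 50 Csf2-zero cells of the brain and spinal cord held these genes. The shares were 1.80% and 1.46% for Ccl1 and 12.3% and 8.73% for Ccl4. The 0 UMIs of 13 cells thus cannot show a level below that of Csf2-zero cells. Il2 went from 4.76 to 0.10 on 3 UMIs and Xcl1 from 2.90 to -1.40 on 6. Ly6c2 was the exception with most UMIs, lower in Csf2-producing cells at day 14 (77.7 and 54.6 against 231 and 160 CPM) and higher at day 50 (418 and 296 against 106 and 148 CPM), with 23 UMIs in 4 cells at day 50; without the 2 richest cells per sum its day term turned to -0.28. Of the 36 genes, 9 were at 0 in the day 50 cells and 13 drew their UMIs from at most 1 cell, and the median interaction of all genes was itself -0.64, so the ratios above are given from pooled sums. Leaving out the day 14 brain left 0 higher and 8 lower calls, leaving out the day 14 spinal cord 0 and 5, leaving out the day 50 spinal cord 2 and 156 and leaving out the day 50 brain 7 and 40; DESeq2 called 3 and 4.

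Between tissues edgeR found 0 genes whose difference itself differed in either direction, with 140 at an unadjusted p under 0.05, and DESeq2 also found 0, with 2. Leaving out the day 14 brain gave 6 genes higher and 1 lower in the spinal cord, leaving out the day 50 spinal cord 1 and 1, and leaving out the day 50 brain 0 and 1. Some ratios were nonetheless apart at day 14, without passing that test: Nr4a1 was 2.0-fold higher in the brain and 6.64-fold in the spinal cord, and Rgcc 4.03-fold and 7.28-fold. In simulated data with these libraries the tissue test called 10 of 100 genes changed 4-fold and also 39 unchanged genes of 8102, and the day test called 4 of 100 changed 4-fold and 0 unchanged genes. Every simulated gene and sum had the same dispersion of 0.05, a measure of spread beyond counting error. These figures need not hold for genes whose UMIs lie in few cells.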

How the data were processed

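The deposited files hold whole-number UMI counts per barcode for 32285 genes and 3 antibody features in 4 RNA libraries, per the file headers; the other 4 of the 8 labelled samples are the antibody reads of the same libraries. Cell Ranger 6.1.1 and the mm10 build are named in the submitters' processing notes, per the labels. No column was left unmapped. Every UMI of a Csf2-producing or Csf2-zero cell was summed per library, giving 8 sums with 3 residual degrees of freedom. The filter on low levels took the mean over these 8 sums, so a gene could pass it through 1 group alone. Genes with a mean of at least 5 CPM, without Csf2 and Il17a, were tested with edgeR 4.0.16 (TMM scaling, library as block, Benjamini-Hochberg adjustment) in R 4.3.3; the day and tissue terms used the same sums, and the Ifng split 4 sums. Alternatives used DESeq2 1.42.0, limma 3.58.1, other filters, thinning to 2000 UMIs, depth-matched cells and each library left out; the fit of day 14 alone and limma's voom were chosen after seeing the data. Scrublet was run through scanpy 1.11.5. Shares carry exact (Clopper-Pearson) and levels exact Poisson 95% intervals, with a floor of 3 counts at 0 UMIs. The SE of an edgeR log2 ratio is the size of the ratio divided by the square root of its F statistic. It is not the spread of the ratio between libraries. Genes were named by rule: the 12 called genes of largest change in each direction with a mean of at least 20 CPM and the same direction in all 4 libraries, up to 4 called genes per list, the 6 called genes of largest change per direction in the day, tissue and Ifng terms at 20 CPM, and a fixed set of cytokine, receptor and transcription factor genes. The cells, the 20 gene lists and the 11 marker lists were chosen with earlier results of these data known. On simulated data with these libraries, the comparison with Csf2-zero cells called 22 of 100 genes changed 2-fold and 97 of 100 changed 4-fold among 8100 genes. The dispersion was 0.05 for every simulated gene and sum, so these figures need not hold for genes whose UMIs lie in few cells.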

Additional observations from a re-analysis of the deposited data

Results flagged for a closer look

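The difference between Csf2-producing and Csf2-zero cells itself differed between day 50 and day 14 in 40 genes (edgeR interaction term, adjusted p under 0.05), of which the 20 that were named by rule in any comparison are given here, each as the change of the pooled log2 ratio from day 14 to day 50. The ratio fell for Il2 (-4.66), Xcl1 (-4.29), Ifng (-2.13), Tnfsf11 (-1.75), Ccl5 (-1.30) and Tnf (-1.24), genes of secreted or surface ligands. It also fell for the activation genes Nr4a3 (-2.39), Rel (-1.77), Nr4a1 (-0.93) and Rgcc (-0.72). For 7 genes with 0 UMIs in the 13 cells of day 50, the change is taken to the floor of 3 UMIs: Ccl1 (-6.05), Ccl4 (-5.57), Ccl3 (-2.38), Tnfsf8 (-1.50), Il22 (-1.45), Eea1 (-1.29) and Maf (-1.17). The ratio rose for Bambi (6.43), Clec12a (6.26) and Ly6c2 (2.80). These 3 rest on 7, 5 and 23 UMIs of 3, 1 and 4 cells at day 50. Clec12a passed the filter on low levels only through its 1 cell. Pooled, it was at 1.84 CPM in Csf2-producing cells of day 14 and at 4.78 and 2.43 CPM in Csf2-zero cells of days 14 and 50. Its rise cannot be read apart from that filter. The part of the few day 50 cells in any of these changes was not tested.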

How the results depend on the processing

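The comparison with Csf2-zero cells gave 446 higher and 488 lower genes, and these counts depend on the method. They were 31 and 58 in DESeq2, 95 and 117 without the library block, 271 and 276 after thinning, 260 and 169 against depth-matched cells, 753 and 915 without the 2 richest cells per gene, 833 and 739 in the day 14 libraries alone, and 684 higher without TMM. Leaving out 1 library gave 53 to 635 higher and 32 to 566 lower. For single genes 1256 repeats kept direction and call, 212 lost the call, 4 gained it and 7 turned: Atf3 (-0.18) and Ier3 (-0.042) without the block, Ccl4 (-0.42) and Ccl1 (-0.37) in DESeq2, Mcm5 (-0.092) and Mki67 (-0.10) against depth-matched cells, and Mki67 (-0.38) without cycling cells. The day term gave 4 higher and 36 lower genes, against 3 and 4 in DESeq2, 24 and 18 without TMM, 0 and 31 after thinning, 1 and 8 with depth matching, 0 and 11 without the richest cells, 2 and 57 at 3 or more Csf2 UMIs, 170 and 55 in voom and 21 lower with tissue and day in place of the block. Leaving out 1 library gave 0 to 7 and 5 to 156. Ly6c2 turned to -0.28 without the richest cells. The median of all genes in that term was -0.64 with TMM and -0.17 without. The tissue term, at 0 and 0, gave 1 higher after thinning and with Il17a at 0, 1 and 2 with depth matching, 4 and 2 without the richest cells, 1 lower without the filter and at 3 or more Csf2 UMIs, and 0 to 6 and 0 to 1 with 1 library left out. The Ifng split, at 26 and 10, gave 7 and 0 in DESeq2, 42 and 21 without TMM, 3 and 0 without the block, 2 lower after thinning, 2 and 0 with depth matching, 17 lower without likely doublets, 40 and 27 without cycling cells, 41 and 50 without the richest cells and 43 lower in voom. Hist1h2ae turned there, to 0.38 without cycling cells and 1.63 without the richest cells. Mean protein log2 ratios with 1 library left out ranged from 0.54 to 0.89 (CD69), 0.65 to 1.21 (P2X7) and 0.52 to 0.98 (CXCR6). CD69 turned to -0.13 as a share of antibodies and -0.018 with depth matching, and CXCR6 to -0.053 as a share. Shares of Csf2-producing cells at day 14 moved in the brain from 2.24% to 1.16% after thinning, 5.38% at 1 or more Csf2 UMIs and 2.68% at 1000 or more genes, and in the spinal cord to 1.53% and 7.59% under the first 2; the day 50 spinal cord moved to 2.41% at 1 or more UMIs. In the spinal cord at day 14 the excess of cells with Ifng was 17.0 percentage points, and that with Klf2 -11.3, unthinned against depth-matched cells. Except where the alternative uses fewer cells or libraries, the cause was not tested. No paired analysis was possible because each tissue and day has 1 library, so the shared number pairs nothing; the block is the library itself. Depth limits the day 50 values, where 3 UMIs are 42.9 CPM.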

Other observations

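Il13 was the only type 2 cytokine gene of the Csf2 cluster with UMIs in Csf2-producing cells among Il4, Il5 and Il13. It was at 25.5 CPM in the day 14 brain and 10.8 CPM in the day 14 spinal cord, against 1.30 and 0.462 CPM in Csf2-zero cells, from 43 and 23 UMIs. These UMIs lay in 9 and 5 cells, and no such UMI was seen in the 13 cells of day 50.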
